A study of Mus musculus with 6 samples.

Results

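The class I histone deacetylase inhibitor CI-994, labelled HDACi, was compared with vehicle in hippocampal nuclei of mice that had met the conditioning chamber with or without a foot shock. The comparison took the 3 HDACi libraries against the 3 vehicle libraries, with the exposure as a covariate, and all 6 libraries of the series were used. Genes were then asked to hold in each of the 3 pairs of one HDACi and one vehicle library. Male C57BL/6J mice (C57BL/6 in the strain label) aged 12 weeks were injected with vehicle or with CI-994 at 30 mg/kg, met the chamber 1 h later, and were killed 1 h after that. The contextual fear conditioning groups (CFC) received 2 foot shocks of 0.2 mA, and the Context groups spent the same time in the chamber without shock. Conditioned mice gave 2 libraries for each treatment (Veh-CFC and HDACi-CFC) and unshocked mice 1 for each (Veh-Context and HDACi-Context), each made from hippocampi pooled from 5 mice. Vehicle held dimethyl sulfoxide, Kolliphor and saline, so every animal was injected, and the labels name no transgene or mutation. Because a library is a pool, the p-values below measure the spread between pools and not between single animals.

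Single nuclei were captured in droplets, and each RNA molecule was counted through its unique molecular identifier (UMI). Of 30323 barcodes, 27766 were kept, which held 500 genes or more and no more than 5% mitochondrial UMIs. UMIs were summed per library over all kept nuclei, over 11753 nuclei with at least 2 UMIs of Slc17a7, the vesicular glutamate transporter of excitatory neurons, and over 1550 nuclei with at least 3 UMIs of Gad1 and Gad2, the enzymes that make GABA in inhibitory neurons. These are called all nuclei, Slc17a7 nuclei and Gad nuclei, and 198 nuclei met both thresholds.

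Histone acetyltransferases place acetyl groups on histone tails, bromodomain proteins bind the acetylated lysines, and deacetylases remove them. The class I enzymes Hdac1, Hdac2 and Hdac3 work in the nucleus within corepressor complexes such as SIN3, NuRD, CoREST and NCoR. In hippocampal neurons histone acetylation is studied for its part in activity-dependent transcription and long-term memory.

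The libraries held between 24508202 and 45570814 UMIs. Their Slc17a7 nuclei made up 42.7% ± 5.80 (SD, n = 3) of kept nuclei with HDACi and 41.1% ± 2.09 (n = 3) with vehicle, and Gad nuclei 5.61% ± 0.225 (n = 3) and 5.54% ± 0.0670 (n = 3), with two-sided exact permutation p of 0.8 and 0.9 where 0.1 is the smallest possible. HDACi-Context had the highest share of Slc17a7 nuclei, 48.8%. Of all barcodes 86 occurred in more than 1 library, with 1 to 11 shared by any pair of libraries. The library titled vehicle for the Context exposure carries a description that says HDACi. Its title and treatment field decided its group here, it is called the library labelled Veh-Context, and main counts are also given without it. With the exposure as a covariate, leaving out either Context library leaves the other without a partner of its exposure. The drug effect then rests on the CFC libraries alone, so such counts do not test the doubtful label by itself. The tissue label reads hippocampus with DG (dentate gyrus) in parentheses, yet the summed markers of CA1 and CA3 pyramidal neurons stood at 262 to 374 and 315 to 375 CPM (counts per 1e6 UMIs of the library) in the vehicle libraries, beside 796 to 891 CPM for dentate granule markers.

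In each nucleus set nuclei of HDACi mice held fewer different genes at equal depth. Slc17a7 nuclei thinned to 5000 UMIs each had a median of 2441 and 2463 genes in the Veh-CFC libraries and 2431 in the library labelled Veh-Context, against 2118 and 2127.5 in HDACi-CFC and 2165 in HDACi-Context. The means were 2445 ± 16.4 (SD, n = 3) and 2137 ± 24.9 (n = 3) genes, a difference of −308 genes with an exact permutation p of 0.1, the smallest that 3 libraries against 3 allow. Gad nuclei at 5000 UMIs had 2491 ± 10.1 and 2153 ± 13.1 genes, and all nuclei at 3000 UMIs had 1707 ± 5.13 and 1509 ± 16.7. The vehicle and HDACi libraries did not overlap in any of the 3 sets, and the Context pair behaved like the CFC libraries. Without thinning, medians in Slc17a7 nuclei ran from 3576 to 3793.5 genes with vehicle and from 2933 to 3259 with HDACi. Nuclei below the fixed depth were left out, 395 vehicle and 574 HDACi nuclei of the Slc17a7 set. More of the UMIs lay in few genes: the 1000 most abundant genes of each library took 57.6% to 58.8% of UMIs in Slc17a7 nuclei with vehicle and 64.5% to 65.1% with HDACi.

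**Figure D1:**
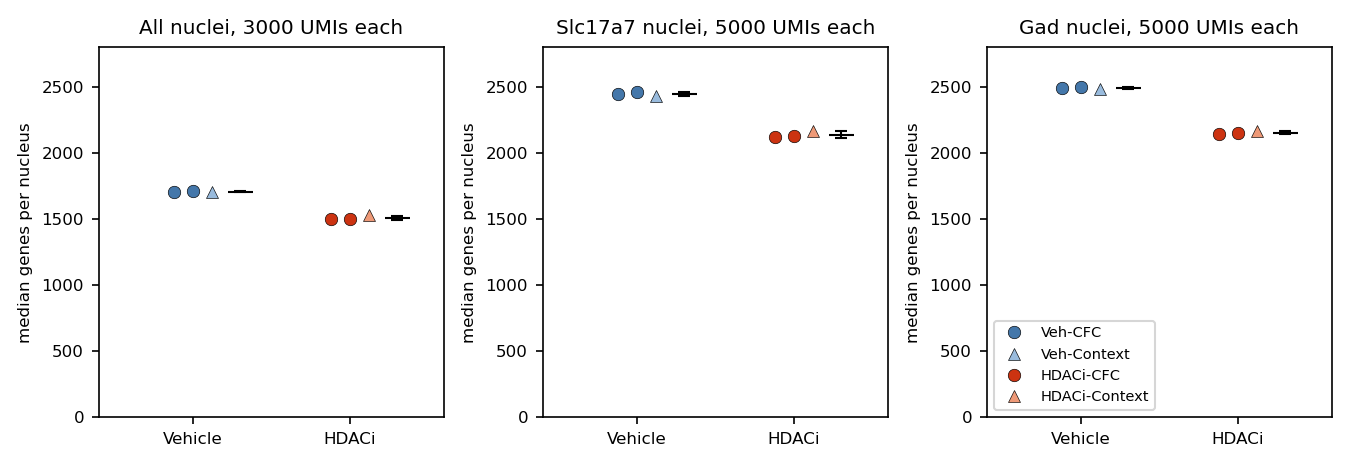
Median number of genes per nucleus (vertical axis, from 0) after thinning every nucleus to the number of UMIs in the panel title, for each of the 6 libraries (circles CFC, triangles Context, blue vehicle, red HDACi), with the mean and SD over 3 libraries in black. In Slc17a7 nuclei the vehicle libraries lie between 2431 and 2463 genes and the HDACi libraries between 2118 and 2165.

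Gene by gene, edgeR's quasi-likelihood test with Benjamini-Hochberg adjustment called more genes lower than higher in all nuclei and Slc17a7 nuclei and fewer in Gad nuclei. A gene is called at an adjusted p below 0.05, and held if it is called and has the same direction in both CFC pairs, matched by replicate number, and in the Context pair. In all nuclei 9964 of 20456 genes tested were called (48.7%), 4685 higher (22.9%) and 5279 lower (25.8%). Of these, 9884 held (48.3%), 4639 higher (22.7%) and 5245 lower (25.6%), and 80 did not (0.391%). The pairs are made of the same libraries that gave the call, so holding describes the called genes and is no further test. By more than 2-fold 744 held higher (3.64%) and 894 lower (4.37%). In Slc17a7 nuclei 8507 of 18756 genes were called (45.4%), 4024 higher (21.5%) and 4483 lower (23.9%), and 8425 held (44.9%), 3980 higher (21.2%) and 4445 lower (23.7%). In the smaller Gad set 4167 of 13110 genes were called (31.8%), 2287 higher (17.4%) and 1880 lower (14.3%), and 4092 held (31.2%), 2235 higher (17%) and 1857 lower (14.2%). Without the library labelled Veh-Context the tests called 9405, 7801 and 2885 genes in all, Slc17a7 and Gad nuclei, and without the exposure covariate 3746, 2889 and 1305. DESeq2 called 2571 in Gad nuclei.

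These directions are relative to the trimmed mean of M-values (TMM) scaling, which centres most genes near no change. With scaling to the library total the median log2 fold change moved to −0.21 in all nuclei, −0.25 in Slc17a7 nuclei and −0.30 in Gad nuclei, and the calls became 2622 higher and 7956 lower, 1966 and 7445, and 888 and 4385. Scaled per nucleus, the medians were −0.26, −0.32 and −0.38 and the calls 1656 higher and 7082 lower, 1218 and 7394, and 399 and 4062. Values below are TMM-scaled CPM, and rises and falls are relative to the median gene unless another scaling is named. Values by library are listed as the 2 Veh-CFC libraries and Veh-Context, then the 2 HDACi-CFC libraries and HDACi-Context.

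The 12 genes with the highest fold changes in Slc17a7 nuclei were taken among held genes of at least 5 mean log2 CPM whose 3 HDACi libraries all lay beyond the 3 vehicle libraries. Igsf3, an immunoglobulin superfamily membrane protein, had 18.2, 20.1 and 12.4 CPM with vehicle and 59.1, 59.97 and 40.1 CPM with HDACi (log2 fold change 1.65, SE 0.081, adjusted p 9.18e-08). Gpc4, a glypican that carries heparan sulfate and acts in synapse formation, had 78.9, 80.1 and 71.6 CPM with vehicle and 230.1, 223 and 218 CPM with HDACi (log2 fold change 1.54, SE 0.059, adjusted p 8.46e-08). For both genes the HDACi libraries lay above the vehicle libraries, a separation that the rule required of every gene it named. Tbl1x, which belongs to the NCoR corepressor complex, had 40.2, 42.3 and 41.4 CPM with vehicle and 117, 117 and 106 CPM with HDACi (log2 fold change 1.45, adjusted p 9.11e-08). Dgkg, a diacylglycerol kinase, had 506, 513 and 496 CPM with vehicle and 1387, 1332 and 1136 CPM with HDACi (log2 fold change 1.34, adjusted p 8.75e-08). Timp4, an inhibitor of metalloproteinases, had 41.1, 36.9 and 74.6 CPM with vehicle and 125, 86.8 and 174 CPM with HDACi (log2 fold change 1.36, adjusted p 1.90e-06), and its Context libraries were the highest of their treatment.

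The other 7 of the 12 were Foxo1 (log2 fold change 1.31), a forkhead transcription factor, Zfp536 (1.29), Arntl (1.28), the clock activator also called Bmal1, Fam49a (1.28), Ccnjl (1.24), Nefm (1.24), a neurofilament subunit, and Gpm6b (1.24), a membrane glycoprotein of neurons and glia. In all nuclei the same rule named Gpc4, Neat1, Igsf3, Timp4, Dgkg, Kif21b, Fam49a, Nefm, Tbl1x, Arntl, Syn2 and Ccnjl, between 1.19 and 1.48. Neat1, the architectural RNA of paraspeckles, lay below the level threshold in Slc17a7 nuclei, where it had 8.67, 9.16 and 5.02 CPM with vehicle and 33.96, 40.03 and 29.2 CPM with HDACi (log2 fold change 2.21, adjusted p 1.41e-07). The synapsin Syn2, which coats synaptic vesicles, had 489.9, 485 and 447 CPM with vehicle and 1081, 1095 and 1037 CPM with HDACi there (log2 fold change 1.18, adjusted p 8.75e-08).

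The same rule gave the 12 lowest. Kmt5b, a methyltransferase of histone H4, had 77.1, 78.6 and 74.7 CPM with vehicle and 26.3, 25.9 and 24.6 CPM with HDACi in Slc17a7 nuclei (log2 fold change −1.59, SE 0.069, adjusted p 8.75e-08). Terf1, which binds telomere repeats, had 60.1, 59.6 and 60.97 CPM with vehicle and 20.03, 19.8 and 23.8 CPM with HDACi (log2 fold change −1.50, adjusted p 1.21e-07). Tmem55a, a phosphoinositide phosphatase also called Pip4p2, had 56.03, 57.3 and 50.6 CPM with vehicle and 19.3, 18.6 and 16.3 CPM with HDACi (log2 fold change −1.60, adjusted p 9.11e-08). Sap130, a subunit of the SIN3 deacetylase complex, had 49.02, 50.6 and 47.6 CPM with vehicle and 18.5, 17.9 and 18.7 CPM with HDACi (log2 fold change −1.42, adjusted p 1.46e-07), and Mcph1, which acts in the DNA damage response and chromosome condensation, had 61.4, 60.6 and 64.6 CPM with vehicle and 25.1, 23.05 and 22.7 CPM with HDACi (log2 fold change −1.41, adjusted p 1.41e-07).

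Completing the 12 lowest were Pou2f2 (log2 fold change −1.56), a POU transcription factor, Zfp846 (−1.45), Iws1 (−1.44), a partner of the elongation factor Spt6, Ghr (−1.41), the growth hormone receptor, Rasa2 (−1.39), a Ras GTPase-activating protein, Ttll4 (−1.39), a tubulin glutamylase, and Cab39l (−1.36). Uba6, an enzyme that activates ubiquitin, had the lowest value among the genes that the rule named in all nuclei (−1.66). It fell in Slc17a7 nuclei by 1.71 and in Gad nuclei by 0.90 on the log2 scale. Each of these 24 genes of Slc17a7 nuclei passed the test in Gad nuclei in the same direction except Tmem55a (−0.30, adjusted p 0.0731); Ghr was called there (−0.40) without the same direction in all pairs.

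**Figure D2:**
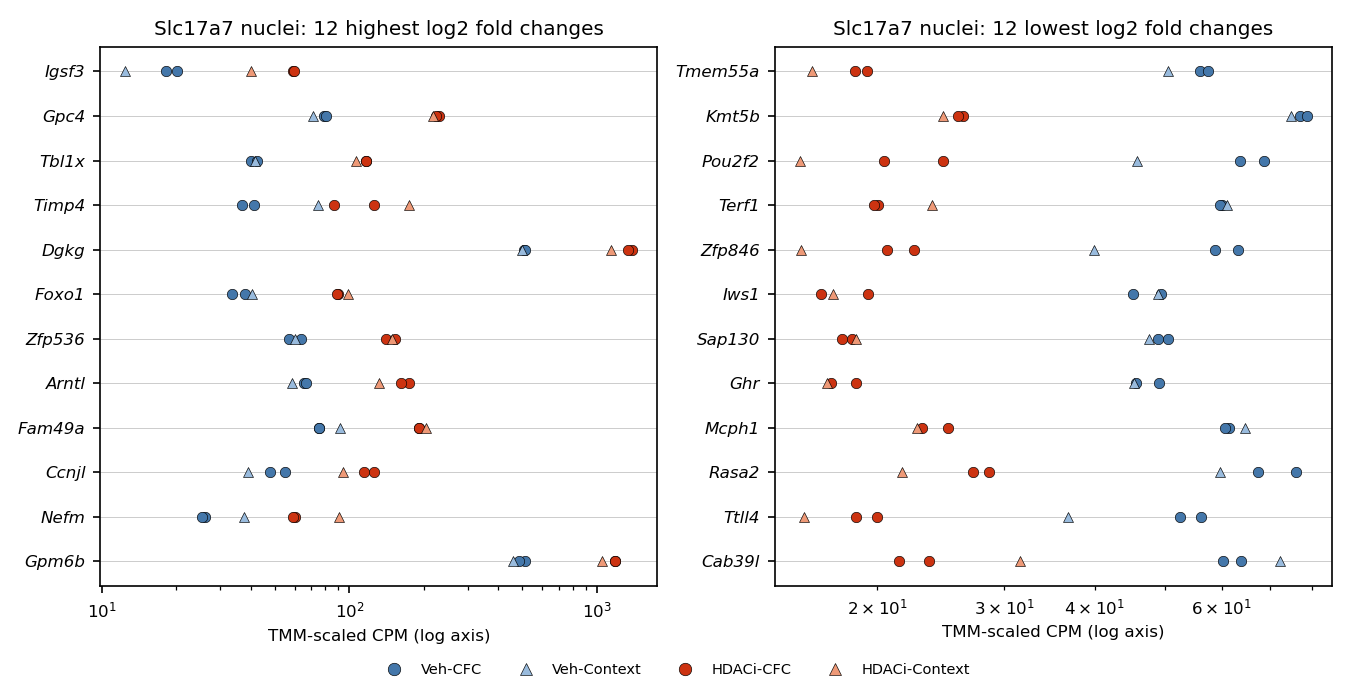
TMM-scaled CPM (log axis) of 12 genes at each end of the log2 fold changes in Slc17a7 nuclei, 1 point per library (circles CFC, triangles Context, blue vehicle, red HDACi). The HDACi libraries lie on one side of the vehicle libraries for every gene shown, which the naming rule required, and Igsf3 runs from 12.4 to 20.1 CPM with vehicle and from 40.1 to 59.97 CPM with HDACi.

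The same rule gave the extremes of Gad nuclei, which were in part those of Slc17a7 nuclei. Foxo1, Fam49a, Timp4, Gpc4, Kmt5b, Terf1, Mcph1 and Iws1 were named in both sets. Ets1, a transcription factor, had 17.5, 22.3 and 15.0 CPM with vehicle and 71.7, 46.4 and 53.8 CPM with HDACi (log2 fold change 1.62, SE 0.19, adjusted p 1.61e-05), and Neb, the giant actin-binding protein nebulin, had 13.6, 15.95 and 20.7 CPM with vehicle and 71.1, 44.9 and 58.1 CPM with HDACi (log2 fold change 1.74, adjusted p 1.15e-05). Disp3 (1.55), a sterol-sensing domain protein, Foxo1 (1.53), Fam49a (1.60), Timp4 (1.60) and Gpc4 (1.49) were also among the 8 highest. Among the genes that met the rule Kmt5b was the lowest (−1.85, 67.3, 65.4 and 66.8 CPM with vehicle and 10.4, 25.2 and 16.8 CPM with HDACi). It was followed by Terf1 (−1.50), Mcph1 (−1.47), Lin52 (−1.45), Ift74 (−1.45), Iws1 (−1.39) and Meis2 (−1.38). Lin52 belongs to the DREAM complex, which represses cell cycle genes.

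Promoters are printed to show what kind of sequence precedes genes that moved each way. They belong to the 5 genes with the largest changes in all nuclei among the 34 of these named genes that held in all 3 sets, taking only genes with 1 RefSeq promoter entry placed at the outermost gene start. Genes on 1 chromosome were passed over as well. The stretches are the 250 bases upstream of the RefSeq gene start (GRCm38.p6, the assembly also called mm10), read along the gene's strand. Capitals mark the GC box GGGCGG, the motif of Sp1-type factors, or its reverse complement CCGCCC. Gpc4 (chrX:52164924-52165173, minus strand, rose), Timp4 (chr6:115252206-115252455, minus, rose), Lin52 (chr12:84451258-84451507, plus, fell), Ccnjl (chr11:43528499-43528748, plus, rose) and Gpm6b (chrX:166238693-166238942, plus, rose) read as follows.
Gpc4: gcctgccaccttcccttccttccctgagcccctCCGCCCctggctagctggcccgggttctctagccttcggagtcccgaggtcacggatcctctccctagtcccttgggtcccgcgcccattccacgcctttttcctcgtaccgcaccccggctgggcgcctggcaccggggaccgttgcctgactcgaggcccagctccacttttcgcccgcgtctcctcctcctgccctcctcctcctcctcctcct
Timp4: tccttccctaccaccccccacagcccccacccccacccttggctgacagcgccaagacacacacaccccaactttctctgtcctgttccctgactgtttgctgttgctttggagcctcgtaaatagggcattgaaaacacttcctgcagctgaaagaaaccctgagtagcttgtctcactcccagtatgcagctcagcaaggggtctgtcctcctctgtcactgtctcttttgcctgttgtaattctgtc
Lin52: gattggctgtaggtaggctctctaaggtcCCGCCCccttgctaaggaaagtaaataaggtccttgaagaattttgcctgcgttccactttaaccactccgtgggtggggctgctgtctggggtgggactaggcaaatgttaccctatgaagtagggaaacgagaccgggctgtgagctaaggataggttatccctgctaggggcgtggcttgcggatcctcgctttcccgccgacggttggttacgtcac
Ccnjl: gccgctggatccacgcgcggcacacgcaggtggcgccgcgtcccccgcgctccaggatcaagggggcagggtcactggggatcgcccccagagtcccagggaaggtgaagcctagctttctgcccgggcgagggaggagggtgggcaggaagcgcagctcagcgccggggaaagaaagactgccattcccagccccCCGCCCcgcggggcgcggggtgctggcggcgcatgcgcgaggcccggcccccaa
Gpm6b: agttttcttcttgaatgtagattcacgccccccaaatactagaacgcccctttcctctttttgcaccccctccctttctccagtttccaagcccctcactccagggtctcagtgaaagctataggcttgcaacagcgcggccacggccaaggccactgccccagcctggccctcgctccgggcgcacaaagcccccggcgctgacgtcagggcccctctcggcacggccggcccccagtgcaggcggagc

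Gpc4, Lin52 and Ccnjl each held 1 GC box in this stretch and Timp4 and Gpm6b none. Only Lin52 fell, so these 5 cannot show whether the motif goes with the direction. Gpm6b held the palindromic cAMP response element TGACGTCA. Over the whole RefSeq window of 300 bases (250 upstream and 50 downstream), searched on both strands, GGGCGG stood in 64.5% of the promoters of genes that held lower in all nuclei, in 52.6% of those that held higher and in 48.1% of the other genes tested. Among all 27025 RefSeq promoters 35.9% held it. TGACGTCA stood in 3.76%, 2.38% and 2.33%, and the TATA motif TATAAA in 5.97%, 9.78% and 10.7%, in the same order. In Gad nuclei GGGCGG was at 64.8% in genes that held lower, 62.5% in those that held higher and 62.2% in the others. Genes were matched by symbol, which gave a promoter for 14244 of the genes tested in all nuclei (69.6%), and the groups also differed in level, with a median log2 CPM of 4.06 for held lower, 4.48 for held higher and 1.78 for the others. A motif match is a description of these windows and not of binding.

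The Context pair was then read as a check on calls made in the 4 CFC libraries alone, with which it shares no library. Of 7817 genes called in the CFC libraries of Slc17a7 nuclei with at least 20 UMIs in the Context pair, 94.6% had the same direction in that pair, where 49.7% of all genes tested were higher and 50.3% lower. In all nuclei the share was 94.5% of 9429 genes and in Gad nuclei 96.1% of 2878. The change was smaller without shock in the median: genes called higher in all nuclei had a median log2 change of 0.60 in CFC and 0.50 in the Context pair, and genes called lower −0.62 and −0.49. These genes were selected on their CFC values, and whether the medians differ beyond that selection was not tested. Among genes called lower by more than 2-fold in CFC, 98.9% were lower in the Context pair, and among those called lower by less than 0.5 on the log2 scale 90.1% were, in all nuclei. Genes called higher did not follow this order, with 94.4% higher in the Context pair above 2-fold and 94.6% below 0.5. The Context pair has 1 library a group and so no test of its own.

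**Figure D3:**
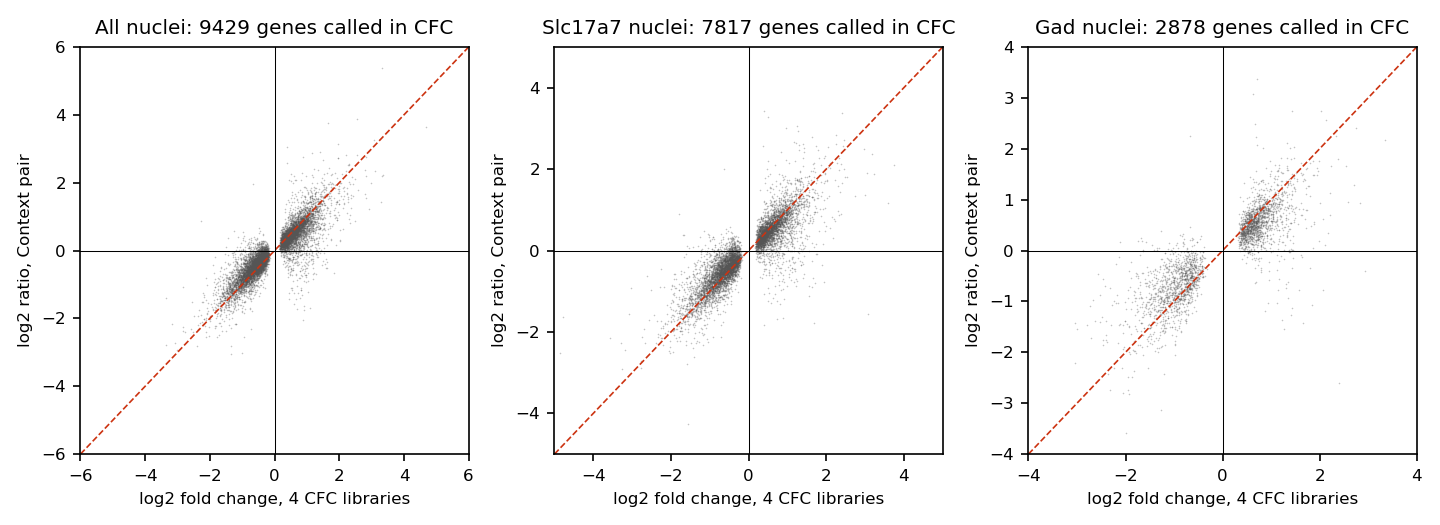
Each point is a gene called in the 4 CFC libraries, in all nuclei (9429 genes), Slc17a7 nuclei (7817) and Gad nuclei (2878), with its log2 fold change in CFC (horizontal) against its log2 ratio of HDACi-Context over Veh-Context (vertical). The dashed line marks equal values, and 94.5%, 94.6% and 96.1% of points lie at the lower left or the upper right, where both values have the same sign.

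A direct test of the exposure, as an interaction with the drug, called few genes: 155 in all nuclei (0.758%), 151 in Slc17a7 nuclei (0.805%) and 0 in Gad nuclei, where 655 (5%) had an unadjusted p below 0.05 and DESeq2 also called 0. DESeq2 called 104 (0.508%) and 57 (0.304%) in the other sets. The interaction rests on 1 library per treatment for Context, which is assumed to vary like the CFC libraries. Among the 166 named genes the interaction was called for Rpl3, a ribosomal protein, and Myoc, the secreted protein myocilin. Rpl3 had 28.8, 28.7 and 23.1 CPM with vehicle and 40.7, 45.8 and 58.9 CPM with HDACi in Slc17a7 nuclei, a drug effect larger in Context by 0.76 on the log2 scale (edgeR adjusted p 0.0449). Myoc had 0.127, 1.004 and 1.03 CPM with vehicle and 5.57, 5.43 and 0.335 CPM with HDACi, an effect lower in Context by −4.68 on the log2 scale (edgeR adjusted p 0.0139). It was higher with HDACi in both CFC pairs and lower in the Context pair, at 2, 24 and 26 UMIs with vehicle and 64, 112 and 9 with HDACi.

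Genes of the acetylation machinery moved in both directions. List counts here and below stand beside the shares of all genes tested that were called. Higher and lower, these were 22.9% and 25.8% in all nuclei, 21.5% and 23.9% in Slc17a7 nuclei, and 17.4% and 14.3% in Gad nuclei. Shares of held genes varied with gene level. In Slc17a7 nuclei the most abundant of 10 equal groups, by mean level over the 6 libraries, held higher in 60.0% and lower in 12.4%. Lists were not compared with genes of like level or length, and the part of level in their counts was not tested. Of the 4 class I deacetylases Hdac1 rose in Slc17a7 nuclei from 49.2 ± 4.78 (SD, n = 3) to 77.7 ± 15.6 CPM (n = 3) (log2 fold change 0.64, SE 0.078, adjusted p 3.16e-05). Hdac2 had 29.6, 28.9 and 28.3 CPM with vehicle and 20.5, 26.6 and 27.2 CPM with HDACi (log2 fold change −0.21, adjusted p 0.12), Hdac3 0.19 and Hdac8 −0.021, none of them called in Slc17a7 nuclei. With library-size scaling Hdac3 turned to −0.057 without a call, while Hdac2 at −0.46 and Hdac8 at −0.27 were called lower. In Gad nuclei 1 of the 4, which was not Hdac1, was called higher and 0 lower under TMM scaling, and 0 either way in the CFC libraries alone. The rise of Hdac1 in Slc17a7 nuclei was thus not called in Gad nuclei, where its direction changed with the libraries used, as given at the end. In all nuclei Hdac2 was called lower (−0.30, adjusted p 0.0297), a call lost without Veh-CFC replicate 1, Veh-CFC replicate 2 or HDACi-CFC replicate 1 (adjusted p of 0.102, 0.093 and 0.119). Of the 7 class II and IV deacetylases 4 rose and 1 fell in Slc17a7 nuclei, against 21.5% and 23.9% of all genes: Hdac5 (0.78), Hdac11 (0.48), Hdac4 (0.36) and Hdac9 rose and Hdac6, the cytoplasmic tubulin deacetylase, fell (−0.56). With library-size scaling 2 of the 7 rose and 1 fell, and Hdac4 was not called, nor was it without Veh-CFC replicate 2 (adjusted p 0.063).

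Most histone acetyltransferase genes fell. Of 16 tested in Slc17a7 nuclei 11 fell and 1 rose, Ncoa1, with a median log2 fold change of −0.40, where all genes tested had −0.0017. Ep300, the coactivator p300, had 116, 113 and 80.9 CPM with vehicle and 66.7, 57.6 and 47.3 CPM with HDACi (log2 fold change −0.85, SE 0.072, adjusted p 1.85e-06), the Context libraries lowest within each treatment. Kat2b (−0.77), also known as PCAF, Taf1 (−0.68), a subunit of TFIID, and Kat5 (−0.58), also known as Tip60, fell as well, Kat5 not without Veh-CFC replicate 2 or HDACi-CFC replicate 2 (adjusted p 0.062 and 0.083). With library-size scaling 15 fell and 0 rose, and in Gad nuclei 5 fell and 4 rose, where 14.3% and 17.4% of all genes did, and without the library labelled Veh-Context 3 fell and 2 rose. Kat2b was at 0.11 in Gad nuclei and not called.

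More bromodomain readers fell than rose. Of 28 tested in Slc17a7 nuclei 16 fell and 3 rose (median −0.36), and in Gad nuclei 11 of 27 fell and 4 rose (7 and 3 without the library labelled Veh-Context). Brpf3, a scaffold of acetyltransferase complexes, had 22.1, 23.6 and 18.7 CPM with vehicle and 9.49, 7.08 and 8.15 CPM with HDACi (log2 fold change −1.39, adjusted p 3.32e-06). Trim24 (−1.36), Atad2b (−0.85) and Brd8 (−0.82) also fell. Scaled to the library total 21 of the 28 fell and 1 rose, as also when scaled per nucleus.

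The 33 corepressor subunits divided, 11 higher and 10 lower in Slc17a7 nuclei, with a median of 0.08. Tbl1xr1, of the NCoR complex like Tbl1x above, had 82.99, 84.1 and 98.9 CPM with vehicle and 136, 142 and 162 CPM with HDACi (log2 fold change 0.73, adjusted p 1.34e-06). Ncor1 had a log2 fold change of 0.18 (adjusted p 0.0157) and −0.069 with library-size scaling, and its call was lost without Veh-CFC replicate 1 or the library labelled Veh-Context (adjusted p 0.08 and 0.062). Sin3a, the scaffold of the SIN3 complex, had 30.7, 29.2 and 35.8 CPM with vehicle and 11.7, 13.5 and 18.1 CPM with HDACi (log2 fold change −1.14, adjusted p 2.19e-06), and Ing1, which reads methylated histone H3, fell by 1.24. Sap130 of the same complex fell and Hdac1 rose, as given above, and Sin3b was at −0.13 and not called.

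Genes that HDAC inhibitors are known to raise in other cells rose here or were not called. In Slc17a7 nuclei 6 of 11 tested rose and 0 fell, and in all nuclei 8 of 12 rose and 0 fell. Cdkn1a, the cell cycle inhibitor p21, had 1.08, 0.878 and 0.948 CPM with vehicle and 2.26, 2.43 and 2.16 CPM with HDACi (log2 fold change 1.24, adjusted p 0.00114), a low level in which the HDACi libraries were still apart from the vehicle libraries. Hspa2 (0.84), a chaperone, and the metallothioneins Mt1 (0.78) and Mt2 (0.74) rose, the latter pair with overlap between the treatments. Mt2 lost its call without Veh-CFC replicate 1, Veh-CFC replicate 2 or HDACi-CFC replicate 2 (adjusted p of 0.052 to 0.054). With library-size scaling 3 of the 11 rose. Summed astrocyte markers were also higher with HDACi in Slc17a7 nuclei, 447 to 519 CPM with vehicle and 694 to 799 CPM with HDACi, and their part in these values was not tested. In Gad nuclei 1 of 8 rose (12.5%, beside 17.4% of all genes), Mt1, without holding in all pairs, and 2 rose without the library labelled Veh-Context.

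Part of the immediate early genes, which neurons switch on within minutes of activity, rose. In all nuclei 15 of 26 rose and 0 fell, and in Gad nuclei 4 of 18 rose (22.2%, beside 17.4% of all genes) and 0 fell. Of 24 tested in Slc17a7 nuclei 11 rose and 0 fell (median 0.45). Npas4, an activity-dependent transcription factor, had 4.97, 4.85 and 3.91 CPM with vehicle and 7.92, 7.03 and 8.45 CPM with HDACi (log2 fold change 0.78, adjusted p 0.00145), and the nuclear receptor Nr4a1 had 21.8, 26.9 and 26.1 CPM with vehicle and 39.9, 43.9 and 41.1 CPM with HDACi (log2 fold change 0.74, adjusted p 4.67e-05). Btg2 (1.14), Jun (1.01) and Nr4a3 (0.81) rose. Fos had 1.47, 1.88 and 2.02 CPM with vehicle and 1.57, 1.36 and 1.56 CPM with HDACi. Fosb had 0.191, 0.627 and 0.711 CPM with vehicle and 0.261, 0.34 and 0.707 CPM with HDACi, and neither was called. The log2 fold change of Fosb, −0.25, turned to 0.19 without Veh-CFC replicate 2. Arc, which acts at the postsynapse in receptor endocytosis, had 16.3, 23.6 and 9.48 CPM with vehicle and 25.4, 34.7 and 20.4 CPM with HDACi (log2 fold change 0.76, adjusted p 0.00199), with overlap between the treatments across exposures though not within them. Egr1 had 6.12, 5.4 and 12.3 CPM with vehicle and 6.36, 8.25 and 15.2 CPM with HDACi (adjusted p 0.0554). With library-size scaling 6 of the list rose and 2 fell, and without the library labelled Veh-Context 11 rose and 1 fell.

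Of the late activity genes 13 of 24 were higher and 3, Baz1a, Per1 and Crem, lower in Slc17a7 nuclei (median 0.41). Bdnf, the neurotrophin, had 50.2, 51.4 and 55.4 CPM with vehicle and 88.6, 92.3 and 124 CPM with HDACi (log2 fold change 0.95, SE 0.078, adjusted p 1.50e-06), and its HDACi-Context value was the highest. Ptgs2, cyclooxygenase 2, had 7.78, 5.52 and 7.07 CPM with vehicle and 18.6, 19.3 and 23.3 CPM with HDACi (log2 fold change 1.60, adjusted p 1.53e-06). Rgs4 (1.24), a brake on G protein signalling, and Nptx1 (1.03), a pentraxin that gathers AMPA receptors, also rose, and the scaffold gene Homer1 rose by 0.41 (0.16 and not called with library-size scaling). Homer1 was at 0.068 in Gad nuclei, not called there, and at −0.23 with library-size scaling. Bdnf rose in Gad nuclei too (27.3, 18.2 and 13.6 CPM with vehicle and 31.95, 54.3 and 37.9 CPM with HDACi, log2 fold change 1.16, adjusted p 0.000677). Library-size scaling left 10 higher and 5 lower.

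More genes of transmitter release rose than fell. Of 39 tested in Slc17a7 nuclei 30 rose and 1 fell, Cplx1 (median 0.37), and in Gad nuclei 25 of 39 rose and 0 fell. Syn1, which tethers vesicles, had 173, 170.4 and 119.6 CPM with vehicle and 424, 388 and 257 CPM with HDACi (log2 fold change 1.19, SE 0.061, adjusted p 1.06e-07), the Context libraries being the lowest of each treatment. Snap25, a SNARE of vesicle fusion, had 815, 774 and 886 CPM with vehicle and 1549, 1670.5 and 1823 CPM with HDACi (log2 fold change 1.03, adjusted p 1.06e-07), and the vesicle protein Rph3a had 52.7, 56.05 and 53.5 CPM with vehicle and 114, 111 and 96.7 CPM with HDACi (log2 fold change 0.98, adjusted p 5.17e-07). With library-size scaling 18 of the 39 rose and 6 fell, and per nucleus 13 and 6. Synaptic adhesion and scaffold genes were similar in count, 30 higher and 5 lower of 43 (median 0.34). Epha4, an ephrin receptor, rose by 0.995 and Dlgap4, a postsynaptic scaffold, by 0.87, after Gpc4 and Igsf3. Shank3, Dlg1, Lrrtm3, Nlgn2 and Ephb2 were the 5 that fell, named after their values were seen, with −0.72, −0.71, −0.49, −0.30 and −0.22. Library-size scaling gave 13 higher and 9 lower in this list.

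More ion channel genes rose than fell under TMM scaling. Of 35 potassium channel genes in Slc17a7 nuclei 23 rose and 0 fell (median 0.41), and in Gad nuclei 24 of 34 rose and 0 fell. Kcnq3, which carries the M-current, had 680.3, 645 and 724 CPM with vehicle and 1443, 1292 and 1211 CPM with HDACi (log2 fold change 0.94, adjusted p 8.30e-07), and Kcnk1, a leak channel, had 49.02, 50.1 and 45.6 CPM with vehicle and 111, 104 and 116 CPM with HDACi (log2 fold change 1.20, adjusted p 2.12e-07). Kcnj3 (0.93), a G protein-gated channel, and Kcnip3 (0.87), a channel-interacting protein, rose as well. Of 32 calcium, sodium and HCN channel genes 22 rose and 3 fell (median 0.39). Cacna1e (0.84), the R-type calcium channel, Itpr1 (0.83), a calcium-release channel, and Cacna1g (0.78), a T-type channel, led, and Hcn2, Scn1a and Cacna1b were the 3 that fell. These counts depend on the scaling: library-size scaling gave 16 higher and 8 lower potassium channels and 14 and 6 of the others, and per nucleus 7 and 8, and 3 and 6.

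Receptors for glutamate and GABA moved less uniformly. Of 22 glutamate receptor genes in Slc17a7 nuclei 11 rose and 5 fell (22.7%, near the 23.9% of all genes), with a median of 0.23. The NMDA receptor subunit Grin2a had 2544, 2505 and 2701 CPM with vehicle and 4658, 4037 and 4297 CPM with HDACi (log2 fold change 0.75, adjusted p 1.14e-06) and Grin2b 1701, 1598 and 1724 CPM with vehicle and 2652, 2534 and 2804 CPM with HDACi (log2 fold change 0.67, adjusted p 8.45e-07). The AMPA receptor subunit Gria4 went the other way, with 220.0, 206 and 211 CPM with vehicle and 144, 137 and 115 CPM with HDACi (log2 fold change −0.69, adjusted p 7.06e-06), and Grm4 fell from a low level (−0.85). In Gad nuclei 11 of 21 genes of the list rose and 0 fell. Of 14 GABA receptor genes 6 rose and 2 fell in Slc17a7 nuclei, led by the GABA-B subunit Gabbr2 (0.63) and by Gabra4 (0.61). Library-size scaling gave 6 higher and 7 lower glutamate receptors and 3 and 5 GABA receptors.

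Cytoskeletal and kinase genes had more calls upwards than downwards. Of 19 neuronal cytoskeleton genes 11 rose and 0 fell in Slc17a7 nuclei (median 0.27). Nefm had 26.1, 25.3 and 37.4 CPM with vehicle and 60.4, 59.1 and 90.6 CPM with HDACi (log2 fold change 1.24, adjusted p 1.46e-07), Dclk1, a doublecortin-like kinase, rose by 1.07, Stmn4 by 0.92 and Tubb2a by 0.91. Kinesin motors split into 8 higher and 6 lower of 22 (27.3% lower, near the 23.9% of all genes). Kif21b (1.40) and Kif1b (0.75) were higher and Kif13a (−1.10) and Kif9 (−0.80) lower. Of 35 calmodulin kinase and cAMP pathway genes 18 rose and 4 fell, and Camk2a, the abundant kinase of excitatory synapses, had 997, 986 and 1041 CPM with vehicle and 1871, 1729.8 and 1746 CPM with HDACi (log2 fold change 0.82, adjusted p 3.40e-07). Camk1g (0.96), Pde1b (0.82) and the CREB coactivator Crtc3 (0.74) rose. Library-size scaling gave 7 higher and 4 lower cytoskeleton genes, 5 and 11 kinesins, and 9 and 12 of the kinase and cAMP genes, more lower than higher for the kinesins and the kinase and cAMP genes. Of 10 WNK pathway and chloride transport genes 1 rose and 5 fell, with Wnk1 at 174, 177 and 141 CPM with vehicle and 92.4, 104 and 83.05 CPM with HDACi (log2 fold change −0.81, adjusted p 1.27e-06) and the chloride importer gene Slc12a2 at −0.77.

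More DNA repair and telomere genes fell than rose. Of 49 tested in Slc17a7 nuclei 34 fell and 7 rose (median −0.71), in all nuclei 37 fell and 5 rose, and in Gad nuclei 24 of 45 fell and 2 rose. Mre11a, the nuclease of the complex that senses double-strand breaks, had 25.4, 22.9 and 15.4 CPM with vehicle and 4.79, 5.82 and 4.43 CPM with HDACi (log2 fold change −2.03, SE 0.13, adjusted p 2.96e-07). Atm, the kinase that this complex activates, had 37.1, 34.97 and 40.5 CPM with vehicle and 9.4, 8.83 and 13.03 CPM with HDACi (log2 fold change −1.85, adjusted p 1.41e-07), and its partner kinase Atr was at −1.07. Fancm, a Fanconi anaemia helicase, had 14.2, 13.4 and 14.8 CPM with vehicle and 3.92, 4.08 and 4.24 CPM with HDACi (log2 fold change −1.79, adjusted p 5.26e-07), and Mdc1, which binds phosphorylated H2AX, had 6.18, 5.23 and 5.89 CPM with vehicle and 1.39, 1.55 and 2.75 CPM with HDACi (log2 fold change −1.57, adjusted p 7.76e-05). The HDACi libraries of these genes lay below the vehicle libraries without overlap. Parp1 went against the list, higher by 1.21, and was named after its value was seen. Scaled to the library total 39 fell and 2 rose, scaled per nucleus 40 and 1, and under TMM 33 and 6 without the library labelled Veh-Context.

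Zinc finger genes with a Zfp symbol, many of which code for KRAB-type repressors, were the largest list. Of 352 tested in Slc17a7 nuclei 164 fell and 33 rose (median −0.34), in all nuclei 206 of 357 fell and 25 rose, and in Gad nuclei 78 of 269 fell and 14 rose (64 and 8 without the library labelled Veh-Context). Zfp184 had 1.34, 1.09 and 1.58 CPM with vehicle and 0.0871, 0.097 and 0.335 CPM with HDACi, from 21, 26 and 40 UMIs with vehicle and 1, 2 and 9 with HDACi, Zfp111 2.87, 2.76 and 3.24 CPM with vehicle and 0.348, 0.534 and 0.968 CPM with HDACi (log2 fold change −2.18, adjusted p 4.38e-05) and Zfp960 was at −1.84, all at low levels. Zfp663 rose (0.51, 0.46 and 0.474 CPM with vehicle and 1.57, 1.8 and 2.38 CPM with HDACi, log2 fold change 2.01, adjusted p 0.000116), as did Zfp536 above. Zinc finger genes share near-identical stretches, and reads that fit several members may be split or lost, so values of single members are uncertain. Library-size scaling gave 244 lower and 13 higher. Of 46 Trim ubiquitin ligases 13 fell (28.3%, near the 23.9% of all genes) and 6 rose: Trim37 had 128, 132 and 102 CPM with vehicle and 59.4, 57.1 and 47.6 CPM with HDACi (log2 fold change −1.14, adjusted p 1.41e-07) and Trim9, a brain ligase of axon branching, 348, 323 and 327 CPM with vehicle and 754, 741 and 709 CPM with HDACi (log2 fold change 1.14, adjusted p 9.11e-08).

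More genes of cholesterol synthesis fell than rose in excitatory nuclei. In Gad nuclei 3 of 22 fell (13.6%, near the 14.3% of all genes) and 0 rose (1 and 0 without the library labelled Veh-Context). Of 23 tested in Slc17a7 nuclei 13 fell and 1 rose, Fdft1 (median −0.46). Mvd, an enzyme of the mevalonate pathway, had 4.46, 4.6 and 3.24 CPM with vehicle and 1.65, 1.7 and 0.596 CPM with HDACi (log2 fold change −1.73, adjusted p 8.91e-05). Acat2 (−1.06) and Lss (−0.98) also fell. Library-size scaling gave 19 lower and 0 higher. The difference between the Slc17a7 and Gad counts was not tested, and the Gad sums held 1739492 to 3630421 UMIs per library against 12675942 to 29182981 in Slc17a7 nuclei.

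Circadian clock genes moved to both sides, 7 higher and 7 lower of 18 in Slc17a7 nuclei. Arntl, the activator, had 65.8, 66.7 and 58.7 CPM with vehicle and 174, 162 and 132 CPM with HDACi (log2 fold change 1.28, adjusted p 1.06e-07). Of the repressors that it drives, Cry1 had 8.61, 10.5 and 7.94 CPM with vehicle and 4.35, 4.46 and 4.62 CPM with HDACi (log2 fold change −0.998, adjusted p 0.000179) and Cry2 48.3, 46.9 and 42.95 CPM with vehicle and 96.7, 94.1 and 83.2 CPM with HDACi (log2 fold change 0.99, adjusted p 3.26e-07), in opposite directions, and Ciart, a further repressor of the clock, was at −1.33. The hour of day at which each library was taken is not given in the sources used here. Of 15 corticosteroid receptor and target genes 11 rose and 1 fell, Per1 (median 0.70), with Ddit4, a stress-induced inhibitor of mTOR, at 1.03 beside Cdkn1a and the metallothioneins, which also belong to the list of genes raised by HDAC inhibitors. Library-size scaling gave 7 higher and 2 lower. Of 39 splicing regulators 19 rose and 6 fell, among them Mbnl2 (339, 336 and 441 CPM with vehicle and 666, 658 and 911 CPM with HDACi, log2 fold change 0.998, adjusted p 1.06e-07), Khdrbs3 (0.88), Rbfox3 (0.63) and Mbnl1 (0.62), and with library-size scaling 11 rose and 14 fell.

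Of 12 nuclear long noncoding RNAs tested 9 rose and 0 fell in Slc17a7 nuclei. Malat1, an abundant RNA of nuclear speckles, had 47615, 48627 and 61954 CPM with vehicle and 67854, 63053 and 91270.2 CPM with HDACi (log2 fold change 0.48, adjusted p 3.32e-06), and Pvt1 (0.56) and Pantr1 (0.56) rose with it. Library-size scaling gave 5 higher and 1 lower. Cytosolic ribosomal protein genes were called higher in 38 of 71 and lower in 1, Rpl12 (median 0.32), but without the library labelled Veh-Context in 22 and 2, and with library-size scaling in 5 and 5. Their pseudogenes can take or lend reads. All 10 calls among the 13 mitochondrially encoded transcripts in Slc17a7 nuclei were upwards, and there were 0 without the library labelled Veh-Context and 0 with library-size scaling. Mitochondrial UMIs were 0.993% of UMIs in the Slc17a7 nuclei of HDACi-Context, 0.660% and 0.520% in those of HDACi-CFC and 0.442% to 0.768% in those of the vehicle libraries, and their part in these calls was not tested.

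**Figure D4:**
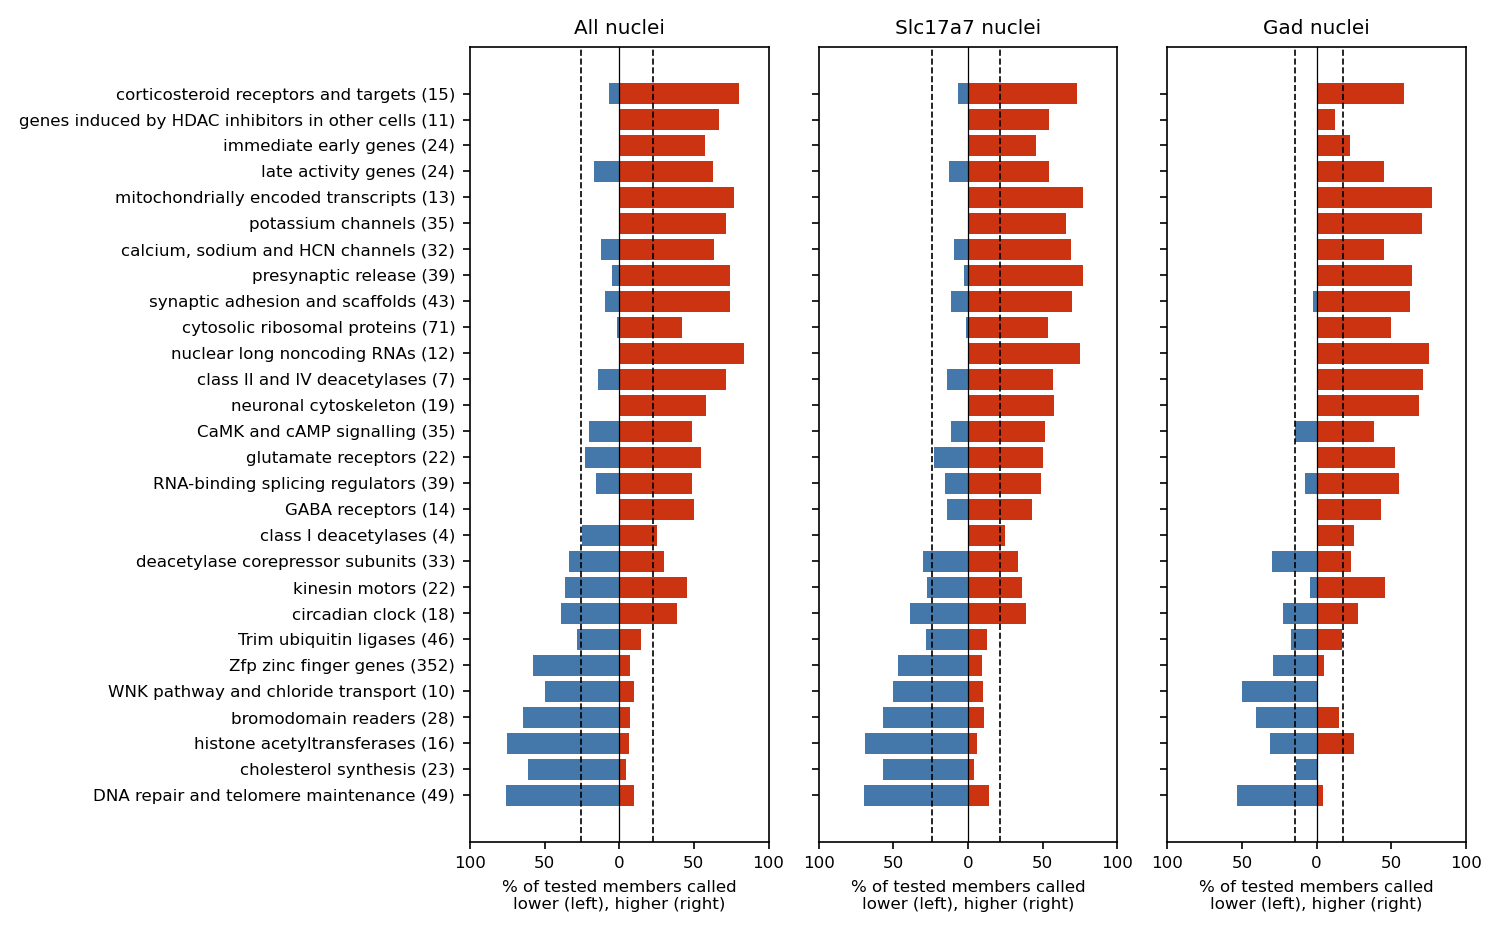
Percent of tested members called higher (red, right) and lower (blue, left) in each of 28 gene lists, in all nuclei, Slc17a7 nuclei and Gad nuclei with TMM scaling, with the number tested in Slc17a7 nuclei in parentheses. Dashed lines mark all genes tested, whatever their level (21.5% higher and 23.9% lower in Slc17a7 nuclei). The lists were not matched to genes of like level. DNA repair genes are called lower in 34 of 49 and presynaptic genes higher in 30 of 39 there.

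Cell type markers moved with the treatment in part of these sums. In all nuclei astrocyte markers ran from 723 to 811 CPM (of all UMIs) with vehicle and from 984 to 1240 CPM with HDACi. There excitatory markers ran from 1301 to 1352 and from 1812 to 1901 CPM, and dentate granule markers from 796 to 891 and from 1118 to 1158 CPM. Sums of CA3, interneuron and oligodendrocyte precursor markers were also higher without overlap in all nuclei, and the other sums overlapped. The summed level of 8 astrocyte markers in Slc17a7 nuclei ran from 447 to 519 CPM (of all UMIs) with vehicle and from 694 to 799 CPM with HDACi, and none of the 8 was at 0 in any library. Summed oligodendrocyte markers ran from 318 to 344 and from 311 to 346 CPM, and microglial markers from 114 to 311 and from 97.7 to 201 CPM. Dentate granule markers ran from 677 to 793 and from 991 to 1121 CPM in Slc17a7 nuclei, and CA3 markers from 386 to 467 and from 507 to 640 CPM. The excitatory markers themselves ran from 1636 to 1653 and from 2158 to 2279 CPM in Slc17a7 nuclei, and interneuron markers in Gad nuclei from 1913 to 2228 and from 2494 to 2810 CPM. In Gad nuclei excitatory markers ran from 444 to 495 CPM with vehicle and from 668 to 890 CPM with HDACi, and CA3 markers from 259 to 292 and from 344 to 458 CPM, without overlap in either sum. Slc17a7, Gad1 and Gad2 chose the nuclei and are part of the excitatory and interneuron sums. They stayed in the fits and in the counts of called genes, but their own values are not read as drug effects here. In these sums fewer nuclei of a type and less RNA per nucleus cannot be told apart. The part of astrocyte RNA in the values of Slc17a7 nuclei and of excitatory RNA in those of Gad nuclei, such as the Bdnf rise, was not tested. Nor was the part of the marker shifts in the calls of all nuclei.

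Gene level, length and type went with the direction. With the genes of Slc17a7 nuclei sorted by mean level into 10 equal groups, the most abundant group held higher in 60.0% and lower in 12.4%. The mean was taken over the 6 libraries of both treatments, so a gene's own change enters its level. How far this shaped the groups was not tested. Group 6, of intermediate level, held higher in 14.9% and lower in 40.4%. In Gad nuclei the most abundant of 10 groups held higher in 62.0% and lower in 3.81%. By gene length (protein-coding genes, from first to last base in GENCODE M21), the longest of 8 equal groups, above 121 kb, held higher in 40.5% and lower in 19.0% in Slc17a7 nuclei, against 15.2% and 32.6% for genes of 18.6 to 27.9 kb. Among genes of at least 5 mean log2 CPM in 5 groups, the longest, above 160.2 kb, held higher in 55.5% and lower in 16.9%, and the shortest, below 22.4 kb, in 36.9% and 19.1%. Levels here are UMIs and not per length, and whether intronic reads were counted is not given in the sources used here.

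Noncoding gene models leaned higher. Of 1889 lincRNA models tested in Slc17a7 nuclei 24.0% held higher and 5.77% lower, and of 1576 antisense models 24.7% and 11.1%, beside 20.5% and 27.3% of 15242 protein-coding genes. Limited to a mean log2 CPM of at least 1, the lincRNA shares were 33.9% and 9.06%, and the antisense shares 34.0% and 14.2%. Strand use in counting is not given in the sources used here, so reads of an antisense model and of its partner gene cannot be told apart.

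**Figure D5:**
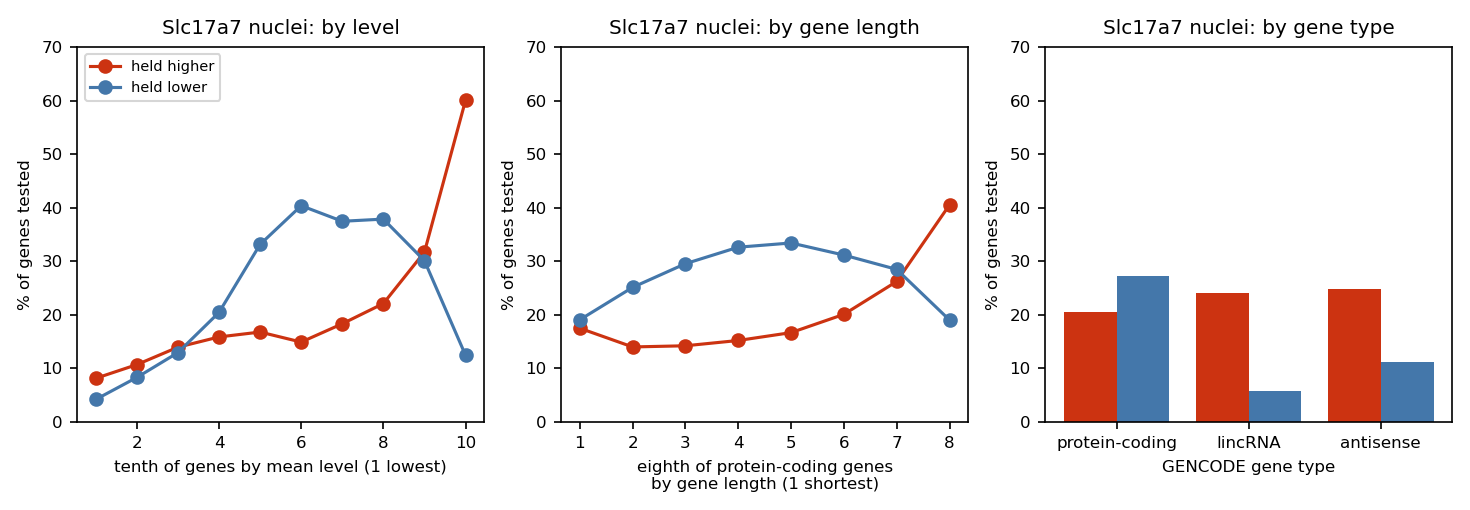
Percent of genes tested in Slc17a7 nuclei that held higher (red) or lower (blue), by mean level over the 6 libraries in 10 groups (left), by gene length of protein-coding genes in 8 groups (middle) and by gene type (right). The most abundant group holds higher in 60.0% and lower in 12.4%, and the longest group in 40.5% and 19.0%.

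Some genes were near absent with vehicle. Of 4831 genes with under 2 CPM in each vehicle library of all nuclei, 838 held higher and 244 held lower. Of all 20456 genes tested there, 4639 held higher (22.7%) and 5245 lower (25.6%), both larger shares than among the near-absent genes. Of the 838, 371 have a gene name rather than a model number. Slco1b2, a liver organic anion transporter, had 1.02, 1.34 and 0.851 CPM with vehicle and 4.36, 5.13 and 3.25 CPM with HDACi (log2 fold change 1.97, adjusted p 1.06e-05), and Sardhos, an antisense RNA of the sarcosine dehydrogenase gene, had 0.951, 1.14 and 1.56 CPM with vehicle and 6.05, 4.19 and 4.47 CPM with HDACi (log2 fold change 1.98, adjusted p 3.81e-05). Mfap4, an extracellular matrix protein, had 1.21, 1.4 and 1.22 CPM with vehicle and 3.57, 4.9 and 4.94 CPM with HDACi (log2 fold change 1.82, adjusted p 2.29e-05). Rgs13 (1.45), Pipox (1.28), Tgfbi (1.55), S100a3 (1.29) and Myoc (1.30) were the others of the 8 with the highest HDACi levels. A gene this low with vehicle can pass the filter on low counts through its HDACi libraries alone, so these counts are a description only.

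Excitatory and inhibitory nuclei were set against each other in a joint fit with the library as block. Nuclei meeting both thresholds were left out of this fit. CPM and fold changes by set include them, so the differences need not equal the gaps between those fold changes. The drug effect differed for 1976 of 17127 genes (11.5%), larger or less negative in Gad nuclei for 1366 (7.98%) and lower for 610 (3.56%). The count was 986 without the library labelled Veh-Context, 1156 without HDACi-Context and 1294 without Veh-CFC replicate 2. Ptpn4, a tyrosine phosphatase, fell in Slc17a7 nuclei, with 110.2, 105 and 125 CPM with vehicle and 53.03, 63.8 and 70.5 CPM with HDACi, and rose in Gad nuclei, with 175, 167 and 197 CPM with vehicle and 291, 294 and 346 CPM with HDACi, a difference of 1.85 on the log2 scale (edgeR adjusted p 3.60e-18). Cux1, a homeobox factor of upper-layer neurons, fell by 1.03 and rose by 0.42, though the rise in Gad nuclei was not called with library-size scaling (0.12) or without Veh-CFC replicate 1, HDACi-CFC replicate 1 or either Context library (adjusted p of 0.077 to 0.16). Frmd5, a FERM domain protein, was at −0.074 in Slc17a7 nuclei and rose in Gad nuclei, with 853, 882 and 888 CPM with vehicle and 2454, 1973 and 2121 CPM with HDACi (log2 fold change 1.32, adjusted p 7.01e-07). Meis2, a homeobox factor, was at −0.11 in Slc17a7 nuclei and fell in Gad nuclei, with 37.9, 108 and 69.6 CPM with vehicle and 21.5, 29.5 and 31.2 CPM with HDACi (log2 fold change −1.38, adjusted p 0.00135). Bicc1, an RNA-binding protein, rose by 0.42 in Slc17a7 nuclei (0.17 and not called with library-size scaling) and fell by 0.61 in Gad nuclei, a call lost without either Context library (adjusted p 0.068 and 0.084).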

How the data were processed

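Nuclear RNA of 6 hippocampal libraries was counted per gene and nucleus barcode. The authors deposited raw UMI counts as Cell Ranger matrices, whose file headers give version 3.0.1 for CFC and 3.0.2 for Context, so that exposure and version cannot be told apart. The submitters' processing notes name mm10 and Seurat 4.0.3. The aligner, the annotation release and the use of intronic reads are not given in the sources used here.

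Barcodes below 500 genes or above 5% mitochondrial UMIs were left out, and UMIs were summed per library for the 3 nucleus sets. Each set was fitted with edgeR 4.0.16 under R 4.3.3 by its quasi-likelihood F test (model of exposure plus drug, genes kept by filterByExpr, TMM factors), with Benjamini-Hochberg adjustment over all genes tested and a threshold of 0.05. The drug effects in Slc17a7 and Gad nuclei were compared in 1 fit of 12 sums with the library as block, without nuclei meeting both thresholds. The exposures were compared by an interaction term. DESeq2 1.42.0 was an alternative. Single values were compared by two-sided exact permutation tests (scipy 1.17.1). Of 31053 gene IDs 31011 matched GENCODE M21, which is on the same assembly. Scrublet, run through scanpy 1.11.5 with an expected rate of 0.06, marked 927 doublets, which were kept in the main analysis. The fits were also run on simulated counts in which few genes changed, evenly up and down, with a fixed spread. Many more genes were called in these data, so the simulation does not bear on the choice of scaling.

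Named genes were, per set, the 12 highest and 12 lowest fold changes (8 and 8 in Gad nuclei) among held genes of at least 5 mean log2 CPM without overlap of the treatments, the 8 most abundant held genes with under 2 CPM in each vehicle library, the 6 highest and 6 lowest differences between Slc17a7 and Gad nuclei, and of each of 28 lists up to 4 held members with the largest changes plus fixed members such as Hdac1, Fos and Bdnf. Unnamed gene models were counted and not named, and some genes that this rule picks are not reported here. The members and lists were chosen with earlier results of these data known. Some lists share members. Alternatives were other scalings, DESeq2, no filter on low counts, a replicate block, no exposure covariate, the CFC libraries alone, doublets removed, all barcodes, stricter thresholds of 4 UMIs for Slc17a7 and 6 for Gad1 plus Gad2, and each library left out. List counts without the library labelled Veh-Context were chosen after seeing the data.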

Additional observations from a re-analysis of the deposited data

Results flagged for a closer look

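For 12 genes the drug effect differed between the nucleus sets in the joint edgeR fit, chosen as the 6 highest and 6 lowest differences on the log2 scale. Fold changes by set come from the separate fits, which, unlike the joint fit, include nuclei meeting both thresholds. Higher in Gad than in Slc17a7 nuclei were Ptpn4 by 1.85, Cux1 by 1.58, Frmd5 by 1.55, Ints6l, a subunit of the Integrator complex family, by 1.49, Tmem55a by 1.44 and Rps6ka5, the kinase MSK1 that phosphorylates histone H3, by 1.32. Ints6l fell in Slc17a7 nuclei (−0.51) and rose in Gad nuclei (0.81), and Rps6ka5 was at −0.20 without a call in Slc17a7 nuclei and rose in Gad nuclei (0.98). Lower in Gad nuclei were Bicc1 by −1.10, Sh3d19 by −1.10, Mindy3, a deubiquitinase, by −1.23, Stard5, a sterol-binding protein, by −1.24, Lzts1, a postsynaptic protein, by −1.26 and Meis2 by −1.47. Lzts1, Stard5 and Mindy3 rose in Slc17a7 nuclei (0.75, 0.66 and 0.44) and were not called in Gad nuclei (−0.25, −0.36 and −0.33). Sh3d19 was at 0.14 in Slc17a7 nuclei without a call and turned to −0.11 with library-size scaling.

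For 2 genes the drug effect differed between the exposures, Context minus CFC on the log2 scale, in the interaction test. Rpl3 had 0.85 in all nuclei (edgeR adjusted p 0.0177) and 0.76 in Slc17a7 nuclei. Myoc had −1.74 in all nuclei (edgeR adjusted p 0.0314) and −4.68 in Slc17a7 nuclei, the latter at 2 UMIs in Veh-CFC replicate 1. Each rests on 1 Context library per treatment.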

How the results depend on the processing

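Without the exposure covariate the calls fell to 3746, 2889 and 1305 genes in all, Slc17a7 and Gad nuclei, each held in all pairs and each among the main calls. DESeq2 called 2571 genes in Gad nuclei, of which 2564 held. Leaving out 1 library gave 8411 to 9564, 7108 to 7964 and 2885 to 4085 calls, 8403 to 9563, 7101 to 7959 and 2881 to 4067 held genes, and 986 to 1718 genes that differed between Gad and Slc17a7 nuclei. The share of CFC calls with the same direction in the Context pair was 96.0% and 95.6% in all and Slc17a7 nuclei with library-size scaling, 97.0%, 97.1% and 97.4% per nucleus in all, Slc17a7 and Gad nuclei, 93.8%, 94.1% and 94.6% without a filter on low counts, and 95.02% in all and 96.9% in Gad nuclei from 100 UMIs. Leaving out 1 CFC library gave 93.1% to 96.4%, 92.9% to 96.1% and 94.03% to 97.2%.

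Replicate deviations of the Veh-CFC and HDACi-CFC libraries correlated at 0.275, 0.301 and 0.00501 in the 3 sets, and with 2 numbered pairs the samples share only a number. With the replicate block the calls were 9903, 8390 and 4310, and the Context shares 92.6%, 92.7% and 95.1%.

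Of 4077 alternative values of named genes 3857 kept direction and call, 131 lost a call, 47 gained one and 42 changed sign, and the cause was not tested. In pairs of library-size and per-nucleus scaling the log2 fold changes turned to −0.11 and −0.17 for Sh3d19 in Slc17a7 nuclei. For Hdac3 they were −0.051 and −0.096 in all nuclei and −0.057 and −0.12 in Slc17a7 nuclei, with −0.033 per nucleus in Gad nuclei. Hdac8 had −0.16 and −0.21 in all nuclei, and Ncor1 −0.092 and −0.14 in all, −0.069 and −0.14 in Slc17a7 and −0.19 and −0.28 in Gad nuclei. In Gad nuclei Arc had −0.066 and −0.12, Homer1 −0.23 and −0.31, and Sin3b −0.19 and −0.26. With stricter thresholds Rps6ka5 had 0.0020 and Hdac8 0.056 in Slc17a7 nuclei. Hdac8 was also at 0.0045 with DESeq2 and 0.010 in the CFC libraries alone, and leaving out 1 library gave −0.052 to 0.049. In Gad nuclei Hdac8 was at 0.0019 without doublets and at −0.040 to 0.0034 without 1 library. Hdac1 in Gad nuclei was at 0.017 in the CFC libraries alone and at −0.24 to 0.049 without 1 library. Homer1 in Gad nuclei was at −0.099 without nuclei meeting both thresholds. Leaving out 1 library moved Frmd5 in Slc17a7 nuclei between −0.12 and 0.0095, Fosb between −0.88 and 0.19 in all and between −0.52 and 0.19 in Slc17a7 nuclei, and, in Gad nuclei, Lzts1 between −0.55 and 0.017, Arc between −0.26 and 0.92, Homer1 between −0.0019 and 0.17 and Sin3b between −0.0060 and 0.21. Precision in Gad nuclei is limited by 206 to 321 nuclei per library.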
